A study of Schizosaccharomyces pombe with 78 samples.

Results

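The transcriptome of fission yeast (*Schizosaccharomyces pombe*) leaving the G1/S transition was compared between 60 and 100 min after release from a *cdc25-22* block, in the strain with wild-type Nrm1. The libraries were taken by their labels, strain Nrm1 at 60 and at 100 min, which gave 4 of the 78 libraries of the series, 2 per time point. Their genotype was *cdc25-22 nrm1-HA*: every library of the strain, controls included, carried the heat-sensitive *cdc25-22* allele and an HA tag on Nrm1. Cells were grown in EMM minimal medium at 25 °C, held at 36 °C for 4 hours and returned to 25 °C, and were then collected every 20 min from 0 to 220 min. The series holds the same samples, and asynchronous cultures, for *cdc25-22 nrm1-SA-HA* (Nrm1-SA, phosphorylation-deficient) and *cdc25-22 nrm1-SD-HA* (Nrm1-SD, phosphomimetic). The study's methods call the replicates biological, but neither they nor the labels say what separated them, and p-values measure only the spread between these samples. They do not say either whether the 60 and 100 min samples of 1 number came from the same flask. A block and release gives a population that moves together through the cycle after heat and long arrest, so an interval after release joins cell-cycle position with time since the heat block. These cannot be told apart in this comparison, and the next cycle is given beside it for that reason.

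As background, entry into S phase in fission yeast depends on MBF, a DNA-binding complex of Cdc10, Res1 and Res2 that binds MluI cell cycle box (MCB) elements and drives genes for replication licensing, deoxynucleotide synthesis and S-phase control. Nrm1 and Yox1 are corepressors of MBF and are themselves MBF targets, a negative feedback loop that switches the wave off once S phase is under way. In this yeast S phase follows mitosis so closely that it overlaps with septation: forkhead factors drive genes of mitosis and cytokinesis, the enzymes that separate the daughter cells are made next, and histone genes are induced as DNA is copied.

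The sequences below show where the elements of these waves lie before some members of the gene lists. All coordinates are in ASM294v3 (RefSeq), each line reads 5′ to 3′ toward the start codon of its gene, and capitals mark the element on either strand. For MBF targets, the capitals mark the MCB core ACGCG and, where it is longer, ACGCGT.
cdc18 (chrII:2218020-2218049, minus strand): atttCGCGTttacgtgtCGCGTCGCGTata
cdt1 (chrII:477306-477335, plus strand): agctACGCGACGCGTcaacaaACGCGacac
cdc22 (chrI:4226514-4226543, plus strand): gtCGCGTCGCGTtgcaattgagACGCGTaa
mik1 (chrII:221338-221367, plus strand): aaaaACGCGaACGCGTcatgACGCGTcgta
cdt2 (chrI:2035744-2035773, minus strand): tcacggACGCGTCGCGTtcACGCGTcacga
For cell separation genes the capitals mark CCAGCC.
eng1 (chrI:998528-998557, plus strand): tatggtaaatatGGCTGGacatgctaagaa
agn1 (chrI:5243926-5243955, plus strand): tcaatctCCAGCCcatgCCAGCCactaaca
adg1 (chrI:5266541-5266570, minus strand): gtgatcagttcaCCAGCCatcagttcgatt
For genes of mitosis and cytokinesis they mark GTAAACA, the forkhead element.
slp1 (chrI:997278-997307, minus strand): ccttctacgattTGTTTACgaaacctaata
cdc15 (chrI:1402961-1402990, minus strand): gtcgcaGTAAACAaacaTGTTTACtctttt
For histone genes they mark AACCCT, which stood in tandem copies between divergent pairs, so that the stretch before *hht3* is shared with *hhf3*.
hht3 (chrII:3529618-3529647, minus strand): tttaattaaAGGGTTAGGGTTgtgatcaaa

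The 4 libraries held 5359331 to 7496854 reads on annotated features, within the range of 2685381 to 10469416 over the series, and the 10 most abundant features took 10 to 10.9% of them. The replicates correlated at 0.994 at both times over log2 values. Values are counts divided by the DESeq2 size factor of the library (normalized counts), and changes are log2 differences of (normalized count + 1), 100 min minus 60 min, with their standard error (SE). Features with a mean of at least 10 normalized counts were tested with limma, with 1 estimate of the spread from all conditions, and a change was called at an adjusted p under 0.1. How strand was handled in counting is not given in the sources used here, and 91.6% of the features tested are overlapped by an annotated gene on the other strand, so reads of such pairs may not be told apart.

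Between the time points compared, 2914 of the 7431 features tested changed, 39.2%. Of these 1422 fell (19.1%) and 1492 rose (20.1%), and the median log2 change of all features was 0.00026. Of the 4926 protein-coding features tested, 1100 fell, 1257 rose and 2569 were not called. The counts of the gene lists below are to be read beside these. Most called changes were small. At least 2-fold changes were called for 510 features (6.86%), 233 of them lower (3.14%) and 277 higher (3.73%), and these held 122 and 159 protein-coding genes. The largest falls were in genes of cell separation, mitosis, septum building and MBF, and the rises included all 9 genes of the histone list. With 1 of the 4 libraries left out, between 2175 and 2341 features were called, and 374 of the 510 features were called in each of the 4 such fits. On the recovered reads edgeR called 1685 features lower (22.7%) and 1611 higher (21.7%) and DESeq2 1413 lower (19.0%) and 1473 higher (19.8%), and 2792 features were called by all 3 tools.

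**Figure D1:**
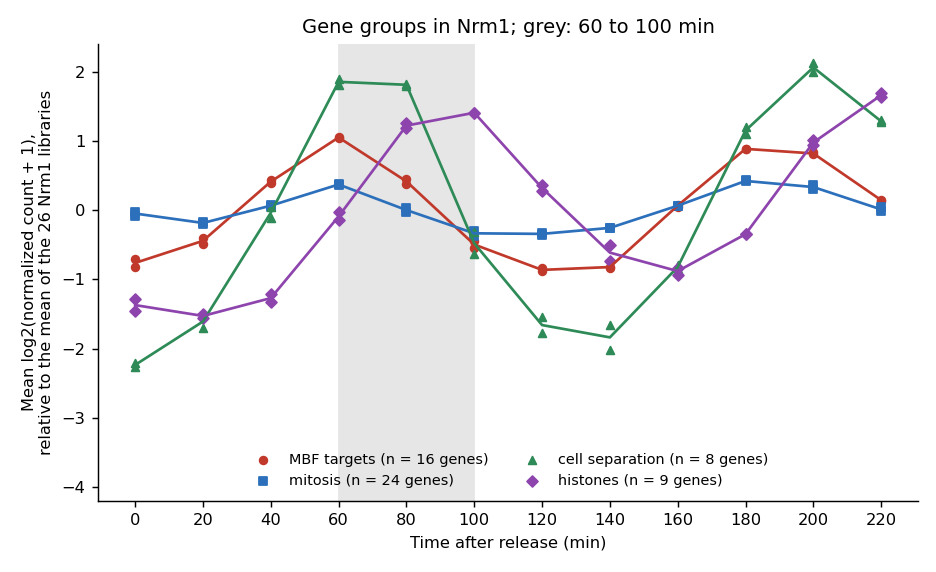
Mean log2 level of 4 gene lists (MBF targets, histones, cell separation, mitosis) in each Nrm1 library from 0 to 220 min (x axis), relative to the mean of the gene over the 26 Nrm1 libraries (y axis); points are libraries and lines join the means of the 2 replicates. From 60 to 100 min the MBF targets went from 1.05 in both libraries to -0.44 and -0.55, cell separation genes from 1.81 and 1.90 to -0.32 and -0.64, and histones from -0.15 and -0.03 to 1.41 in both.

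The MBF wave was largely over by 100 min. Of 16 MBF targets, 14 fell, 11 of them at least 2-fold, and the median change of the list was -1.46 on the log2 scale. The licensing factor gene *cdt1*, whose product loads the replicative helicase at origins, went from 2043 and 2302 normalized counts at 60 min to 194 and 179 at 100 min, an 11.6-fold fall (log2 change -3.53, SE 0.11, limma adjusted p = 3.1e-31). The gene of the Cdk1-inhibiting kinase Mik1 had the largest fall of the list, from 1381 and 1330 to 133 and 91.2 (log2 change -3.61). *cdc18*, the partner of *cdt1* in licensing (Cdc6 in other species), went from 2666 and 2734 to 750 and 674, which was 3.79-fold (log2 change -1.92, SE 0.06, limma adjusted p = 1.2e-30). In each of these genes both 100 min libraries were far below both 60 min libraries. Apart from *mik1* at 100 min, the replicates stood close together.

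The gene of the large ribonucleotide reductase subunit, *cdc22*, was the most abundant of the list and fell 3.87-fold, from 26631 and 26761 normalized counts to 7355 and 6446. *cdt2*, which encodes the substrate adaptor of the ubiquitin ligase that destroys Cdt1 and Spd1 in S phase, fell 7.15-fold, from 1733 and 1753 to 253 and 234. The falls of the others were graded. *tos4* (log2 change -1.87), the fork protein gene *mrc1* (-1.58), the cohesin kleisin gene *rad21* (-1.52), the dUTPase gene *dut1* (-1.41) and the RPA subunit gene *ssb1* (-1.06) fell more than 2-fold. The G1/S cyclin gene *cig2* (-0.86) and the end-resection gene *ctp1* (-0.67) fell by less. The exceptions were *eso1*, which joins a cohesin acetyltransferase to a translesion polymerase, at 737 and 723 before and 695 and 705 after, and *suc22*, the small ribonucleotide reductase subunit gene, at 2434 and 2438 before and 2513 and 2495 after (log2 changes -0.06 and 0.04, limma adjusted p = 0.67 and 0.61).

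Among the genes of the MBF machinery, the 2 corepressor genes fell with the targets: *nrm1* from 1262 and 1251 to 613 and 578 (log2 change -1.08) and *yox1* from 913 and 930 to 541 and 490 (-0.84). The coactivator gene *rep2* fell slightly (-0.40). The subunit genes moved little: *cdc10* stood at 609 and 570 and then at 583 and 572 (limma adjusted p = 0.81), and *res2* was not called either (-0.07, adjusted p = 0.67). *res1* was called at -0.18 (limma adjusted p = 0.077), but not in any fit that left out 1 of the 4 libraries, where adjusted p reached 0.246, nor with DESeq2 (adjusted p = 0.116).

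Genes of the replication apparatus, some of them also MBF targets, were mixed. Of 25 genes of origins and the helicase, *cdc18* and *cdt1* included, 10 fell, 4 rose and 11 were not called, with a median of -0.15. Both genes of the Dbf4-dependent kinase that fires origins fell about as much as each other: *dfp1* from 1870 and 1771 to 889 and 768 (-1.14) and *hsk1* from 622 and 568 to 297 and 269 (-1.07). Genes of the MCM helicase fell by small amounts, -0.36 for *mcm2*, -0.33 for *mcm3*, -0.36 for *mcm4* and -0.27 for *mcm5*. The call of *mcm4* was lost without replicate 1 of 60 min (adjusted p = 0.106), and that of *mcm5* without either 100 min library or replicate 2 of 60 min (adjusted p up to 0.192). In the other direction, the GINS subunit gene *psf2* rose from 74.9 and 55.4 to 139 and 138 (1.09), and *drc1*, an initiation factor gene, rose by 0.47.

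At the replication fork, 10 of 29 genes fell (the MBF targets *ssb1* and *mrc1* among them), 2 rose and 17 were not called, with a median of -0.17. *pol1*, the catalytic subunit gene of DNA polymerase alpha, went from 1492 and 1482 to 521 and 481, a 2.97-fold fall. *cdc20*, which in this yeast encodes the catalytic subunit of DNA polymerase epsilon, fell 2.36-fold, from 853 and 823 to 364 and 347. The sliding clamp gene *pcn1* stood at 1876 and 1938 and then at 1812 and 1737 and was not called (-0.10). In nucleotide supply, 3 genes of 9 fell, all of them MBF targets given above (*cdc22*, *cdt2* and *dut1*), and 3 rose. *spd1*, an inhibitor gene of ribonucleotide reductase, rose about as many fold as *cdc22* fell: it went from 152 and 140 to 552 and 593, a 3.92-fold rise (log2 change 1.96, SE 0.14, limma adjusted p = 2.4e-16). The thymidylate kinase gene *tmp1* rose by 0.60.

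Cohesin genes fell or were not called: 5 of 9 fell and none rose, with a median of -0.36. After the MBF target *rad21*, the largest fall was in the ring subunit gene *psm3*, from 1683 and 1634 to 798 and 857, followed by the regulator gene *pds5* (-0.46) and by *psc3* (-0.38), whose call was lost without replicate 2 of 100 min (adjusted p = 0.16). Checkpoint and recombination genes went both ways, 6 of 24 down and 7 up (4 up without replicate 1 of 100 min) with a median of 0.03, the MBF targets *mrc1* and *ctp1* among those down. Down and up, these shares were close to those of all protein-coding features tested (1100 and 1257 of 4926). The structure-specific nuclease gene *mus81* fell by 1.24 on the log2 scale. The replication checkpoint kinase gene *cds1* rose from 197 and 205 to 411 and 415 (1.04).

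Mitotic genes that were still high at 60 min had fallen by 100 min. Of 24 genes of mitosis 12 fell, 7 of them at least 2-fold, 1 rose and 11 were not called, with a median of -0.22. *slp1*, the gene of the Cdc20-type activator of the anaphase-promoting complex, had the largest fall, from 3990 and 4008 to 354 and 280, 12.6-fold (log2 change -3.66, SE 0.14, limma adjusted p = 8.3e-27). The forkhead factor gene *fkh2* went from 980 and 939 to 192 and 159, and the polo kinase gene *plo1* from 725 and 685 to 161 and 127 (log2 changes -2.45 and -2.29). The kinesin-8 genes *klp5* (-1.68) and *klp6* (-1.87) and the NIMA kinase gene *fin1* (-1.58) also fell. The only riser of the list was the other forkhead factor gene, *sep1*, from 250 and 253 to 567 and 531 (1.12). The transcript of the gene that held the block, *cdc25*, stood at 234 and 240 at 60 min and at 243 and 237 at 100 min and was not called (limma adjusted p = 0.94).

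Genes of cytokinesis were mixed, with large falls in some. Of 18 contractile ring genes 7 fell, 2 rose and 9 were not called, with a median of -0.06. The F-BAR scaffold gene *cdc15* went from 2050 and 2051 to 349 and 346, the paxillin gene *pxl1* from 1048 and 974 to 179 and 166, and the myosin II heavy chain gene *myp2* from 1852 and 1797 to 359 and 323. These 3 falls were between 5.35-fold and 5.90-fold, while the second F-BAR gene *imp2* fell by 1.12 on the log2 scale and the essential myosin II gene *myo2* rose by 0.42. In the septation initiation network, the signalling pathway that starts ring constriction, 5 of 11 genes fell and 1 rose, with a median of -0.03 that was positive (0.0293) without replicate 2 of 60 min. The falls were led by its activator gene *etd1* (from 786 and 777 to 103 and 75.1, -3.14) and the kinase gene *sid2* (-0.98).

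For septum and cell wall synthesis, 9 of 18 genes fell and 3 rose. The chitin synthase homologue gene *chs2* went from 810 and 892 to 82.1 in both libraries (-3.36), the glucanase gene *exg1* fell 7.55-fold from 5804 and 5524 to 790 and 711, and the glucanosyltransferase gene *gas1* fell 4.67-fold from 17352 and 16321 to 3854 and 3354. *chr4*, a glucan synthase regulatory factor gene, fell by 1.17 and the glucan synthase gene *bgs4* by 0.49 on the log2 scale. The members that rose included *psu1*, annotated as a beta-glucosidase, from 970 and 751 to 2282 and 2368 (1.44), and the second glucanosyltransferase gene *gas2* (0.93). The septin list, 5 genes with the anillin-like gene *mid2* included, had 1 fall, that of *mid2*, which is given below. It had 2 rises of at most 0.35, and their calls were not all kept in the fits without 1 library. The median was 0.04.

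Every gene of the cell separation list fell, 8 of 8, and 6 fell at least 2-fold with a median log2 change of -2.14. *eng1*, the glucanase gene that dissolves the primary septum, went from 7482 and 7744 normalized counts to 607 and 431, a 14.7-fold fall (log2 change -3.89, SE 0.25, limma adjusted p = 3.7e-18), and *agn1*, the glucanase gene that opens the surrounding wall, from 1650 and 1698 to 366 and 334. *mid2*, an anillin-like gene that organises the septin ring, went from 5177 and 5591 to 2020 and 1807 (-1.49), and *cfh4*, a chitin synthase regulatory factor gene, from 2723 and 2945 to 781 and 626 (-2.02). The smallest falls were *adg3*, from 2105 and 2264 to 1253 and 1090 (-0.90), and *adg1*, from 1354 and 1572 to 837 and 717 (-0.91). The call of *adg1* was lost without replicate 2 of 60 min or replicate 2 of 100 min (limma adjusted p = 0.021 with all 4 libraries and up to 0.139 without 1).

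**Figure D2:**
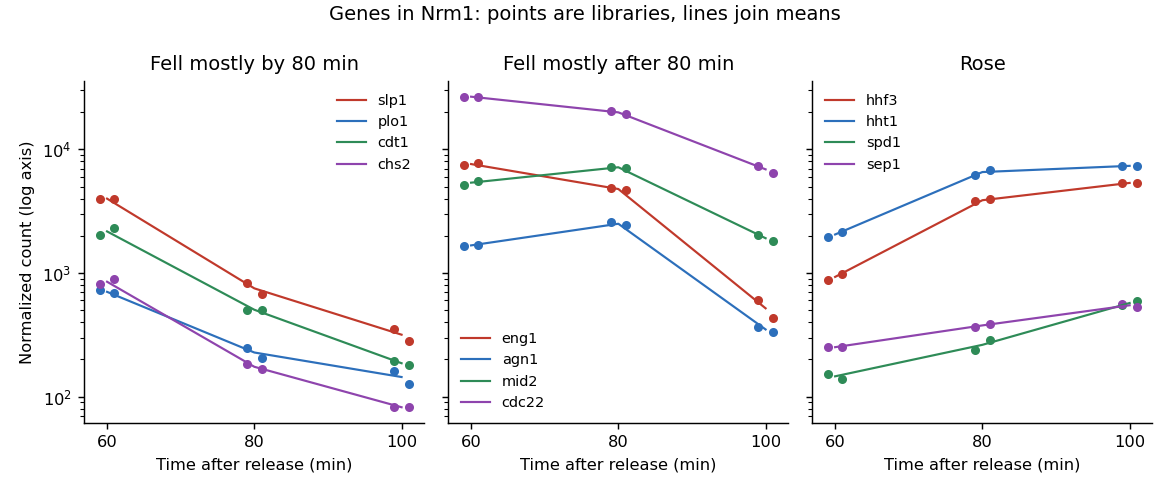
Normalized counts (y axis, log) of 12 genes in the Nrm1 libraries at 60, 80 and 100 min (x axis), in 3 panels of 4 genes; points are the 2 libraries of each time and lines join their means. At 80 min *plo1*, *slp1*, *cdt1* and *chs2* had already lost most of their level, *agn1* and *mid2* stood above their 60 min level, and the histone genes *hhf3* and *hht1* had gained most of their rise.

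All 9 genes of the histone list, which holds no histone variants, rose, with log2 changes from 0.72 to 2.53 and a median of 1.60. The H4 gene *hhf3* rose most, 5.76-fold, from 880 and 982 normalized counts to 5355 and 5361 (log2 change 2.53, SE 0.17, limma adjusted p = 9.6e-18). The H3 gene *hht1* went from 1959 and 2144 to 7323 and 7405 and the H2A gene *hta2* from 1936 and 2140 to 6207 and 6155. The 3 genes that rose less than 2-fold were *hht2* (0.72), *hta1* (0.89) and *htb1* (0.91). The H3 genes therefore differed among themselves: before the rise *hht1* and *hht2* stood at similar levels, and after it *hht2* was at 3330 and 3288, below *hht1*. The gene copies encode near-identical proteins. No alignment between them reached 95% identity over 75 bases or more, the limit above which a value is called uncertain here. Identical stretches within longer alignments of lower identity were not sought, so reads shared between copies are not excluded. The gene of the GATA-type factor Ams2, which activates histone genes, went the other way, from 2097 and 2048 to 662 and 612 (-1.70). Of the 17 histone variant, regulator and chaperone genes, *ams2* included, 5 fell and 1 rose (0 without replicate 1 of 100 min or replicate 2 of 60 min).

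Transcripts of the CDK network went both ways over the same 40 min, with 7 of 14 genes down and 4 up. The genes of the G1 CDK inhibitor Rum1 (from 394 and 398 to 173 and 157, -1.26) and of Srw1, the Cdh1-type activator of the anaphase-promoting complex (from 531 and 464 to 178 and 165, -1.53), fell with *mik1*. The mitotic cyclin gene *cdc13* fell by 0.60. Risers were the cyclin genes *cig1*, from 162 and 163 to 324 and 332 (1.01), and *puc1*, from 86.1 and 90.4 to 170 and 165 (0.92), the kinase gene *wee1* (0.58) and *cdc2* itself (0.47).

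By the rule of the 10 largest changes, the falls outside the lists were *SPBC19G7.04*, annotated as a repair protein of protein-DNA cross-links, from 549 and 558 to 51.2 and 28 (-3.83), the chitinase gene *cts2*, from 6688 and 7172 to 850 and 669 (-3.20), and *spo12*, from 750 and 824 to 92.7 and 86.1 (-3.12). The largest rises had lower levels than the largest falls. Apart from *hhf3* they were *SPAC637.03* (from 74.1 and 93.2 to 549 and 598, 2.77), the calcium pump gene *cta3* (from 35.2 and 25.8 to 206 and 216, 2.77), *cmt2*, annotated as a catechol O-methyltransferase (2.70), *dgc1*, annotated as a D-glutamate cyclase (2.64), the unnamed *SPAPB24D3.07c* (2.64), *rtc3* (2.58), the amino acid transporter gene *isp5* (2.54), *SPAC977.18* (2.42) and the iron reductase gene *frp1* (from 105 and 93.2 to 428 and 644). The value of *SPAC977.18* is uncertain, since 795 bases of it are 98.1% identical to a second gene. The noncoding RNAs with the largest changes were SPNCRNA.1069 (-2.04), SPNCRNA.1139 (-2.03) and SPNCRNA.1278 (-2.00) among the falls and SPNCRNA.6860 (2.16), SPNCRNA.1318 (1.89) and SPNCRNA.6197 (1.76) among the rises.

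The libraries at 80 min divided the interval. In the first 20 min 1452 features changed (19.5%), 8.57% of those tested lower and 11.0% higher. In the last 20 min 1110 changed (14.9%), 527 lower (7.09%) and 583 higher (7.85%). Both counts were lower whichever 1 of their libraries was left out. The steps share the 80 min libraries, so their values are given side by side only.

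**Figure D3:**
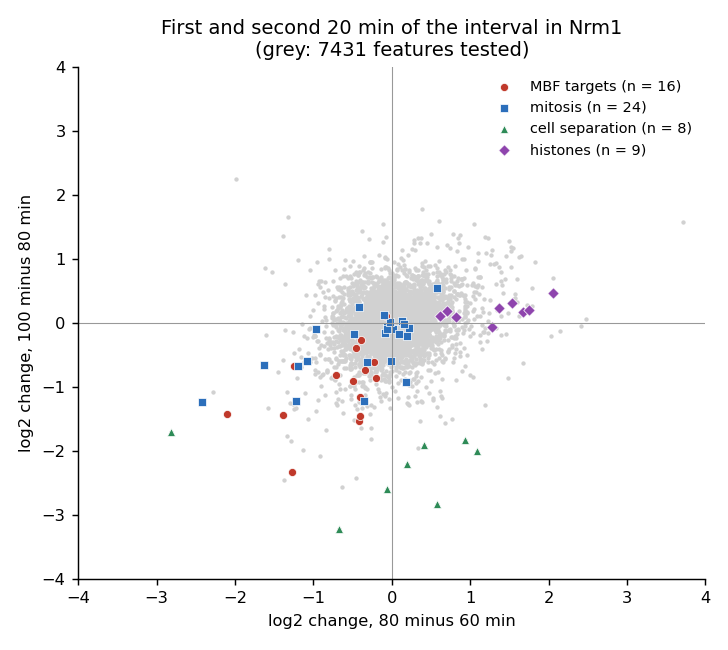
Log2 change from 60 to 80 min (x axis) against that from 80 to 100 min (y axis) in Nrm1 for every feature tested (grey) and for 4 gene lists in colour. Histones lie to the right near 0 on the y axis, most cell separation genes lie low and near or right of 0 on the x axis, and MBF targets lie below 0 on the y axis except *suc22*. The axes share the 80 min libraries.

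The waves followed different timetables. Histone genes took nearly all of their rise in the first step, where all 9 rose with a median of 1.37, and in the second the median was 0.19 and 2 were called higher. *hht1* stood at 6265 and 6856 at 80 min, and *hhf2* (3548 and 3665) was then at the level it kept at 100 min (3470 and 3431). Cell separation genes did the reverse: their first step had 4 genes higher, 2 lower and a median of 0.31, and in the second all 8 fell, with a median of -2.11. *adg1* rose to 3024 and 3199 before it fell, *adg3* to 4139 and 4178, *agn1* to 2582 and 2428 and *mid2* to 7249 and 7092. Among the genes lower at 80 min, *eng1* stood at 4845 and 4722.

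MBF targets fell in both steps, with medians of -0.42 (13 lower) and -0.84 (14 lower), and their order of decline differed by gene. *cdt1* was at 506 and 504 at 80 min, with a first step of -2.10 and a second of -1.43. *cdc18* also had the larger step first, -1.25 and then -0.68. *cdc22*, at 20410 and 19471, had lost 0.42 and then lost 1.53, and *tos4* had steps of -0.41 and -1.46. *mik1* fell by 1.28 and then by 2.33. The difference between the steps was not tested for any of these genes, and the 2 replicates of *mik1* at 100 min stood apart. In mitosis and cytokinesis the first step was the larger for *slp1* (831 and 674 at 80 min, -2.42 and then -1.24) and *plo1* (-1.63 and -0.66), about equal to the second for *fkh2* (-1.22 and -1.23) and *cdc15* (-1.30 and -1.26), and the smaller for *fin1* (-0.35 and -1.23) and *sid2* (-0.07 and -0.91). Of the 122 protein-coding genes down at least 2-fold, 83 were called lower in the first step and 97 in the second, and 97 had their highest mean of the first 100 min at 60 min. Of the 159 up at least 2-fold, 128 were called higher in the first step and 94 in the second, 92 had their highest mean at 100 min and 51 at 0 min. Both steps are parts of the change that chose these genes. A fallen gene also cannot be highest at 100 min, nor a risen gene at 60 min. These counts are therefore in part set by the choice. Over all 7431 features tested, the highest mean was at 0 min for 2236, at 60 min for 999 and at 100 min for 1331.

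Genes of other functions also moved. Of 93 ribosome biogenesis genes 54 fell and 1 rose, by small amounts (median -0.27), nearly all of it in the first step (median -0.26, 55 lower), while 119 of 137 ribosomal protein genes were not called, 17 fell and 1 rose (9 to 10 fell without replicate 1 of 100 min or either 60 min library). Of 12 core stress genes 8 rose and 2 fell, with a median of 0.78. The catalase gene *ctt1* went from 353 and 342 to 969 and 949, *atf1*, the stress transcription factor gene, from 306 and 305 to 845 and 843, and the trehalase gene *ntp1* from 375 and 384 to 877 and 937. Rises of under 2-fold were found for the glutathione peroxidase gene *gpx1* (0.82) and the trehalose synthesis gene *tps1* (0.74). Heat shock genes went down more than up, 6 of 12 against 2 (1 without replicate 2 of 60 min): *hsp16* from 400 and 345 to 142 and 136, the chaperonin gene *hsp10* from 2388 and 2308 to 1110 and 1198 and *hsp90* from 7937 and 7362 to 4045 and 4107, with *hsp104* higher by 0.65. All 4 of these heat shock genes had their highest mean of the first 100 min at 0 min, the end of the heat block. In the mating and meiosis list, 5 of the 14 genes tested fell (3 without replicate 2 of 100 min or replicate 1 of 60 min) and 2 rose (0 without replicate 2 of 100 min, 1 without replicate 1 of 100 min or replicate 1 of 60 min), with *ste6*, a Ras exchange factor gene, from 606 and 661 to 109 and 100 (-2.58) and *mei2* from 256 and 287 to 113 and 118 (-1.22).

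The interval 120 min later was set beside the first because it shares no library with it and lies farther from the heat block. From 180 to 220 min 1541 features changed (20.7%), 737 of them lower (9.92%) and 804 higher (10.8%). The count was 811 without replicate 2 of 220 min and 856 without replicate 1 of 180 min. Of the 1422 features that had fallen, 79.1% had a lower sign in the next cycle and 489 were called lower. Of the 1492 that had risen, 79.2% had a higher sign and 478 were called higher. Over all features the log2 changes of the cycles correlated at 0.48 (Pearson, across genes, which are not independent replicates).

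**Figure D4:**
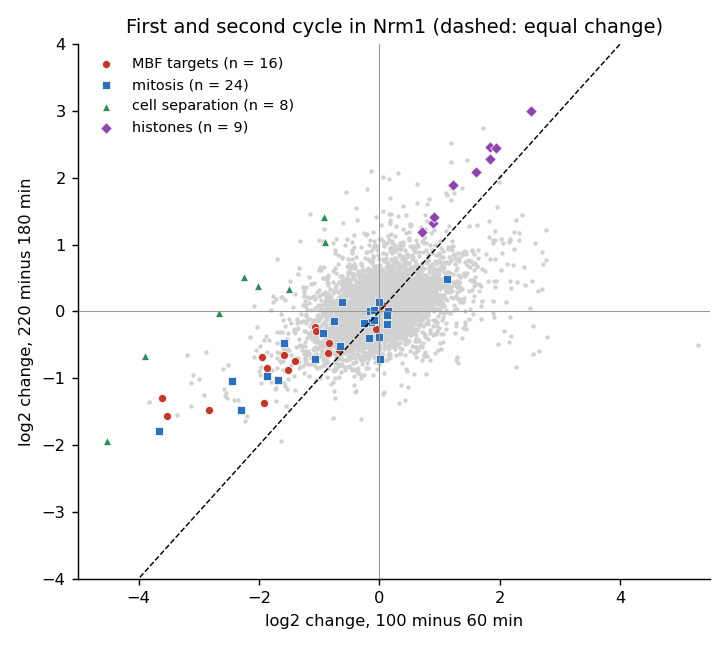
Log2 change from 60 to 100 min (x axis) against that from 180 to 220 min (y axis) in Nrm1, all features tested in grey and 4 gene lists in colour. The axes share no library; MBF targets and histones keep their direction in both, while cell separation genes lie below 0 on the x axis and on both sides of 0 on the y axis.

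The lists differed in how much of the first exit was seen again. MBF targets fell again, 14 of 16, with a smaller median of -0.66. *cdt1* went from 1559 and 1510 to 558 and 484 and *cdc18* from 2473 and 2499 to 996 and 921. *cdc22* went from 22598 and 22272 to 13998 and 14032. The log2 list mean was 0.89 and 0.88 at 180 min, 0.80 and 0.83 at 200 min and 0.15 and 0.14 at 220 min. The first exit had 1.05 in both libraries at 60 min, 0.45 and 0.38 at 80 min and -0.44 and -0.55 at 100 min. The second decline thus came mostly after 200 min, and the list was still above its 100 min level at 220 min. The medians therefore need not cover the same part of the wave. Of the 14 that fell in the first exit, *nrm1* was the 1 not called in the next (959 and 905, then 807 and 784, limma adjusted p = 0.26), and *eso1* was called lower there alone (-0.27). All 9 genes of the histone list rose again, with a larger median of 2.08. Among them *hhf3* went from 746 and 722 to 5696 and 6012. Cell separation genes did not fall again over this interval: 5 were called higher, 2 lower, and the median was 0.36. *adg1* went from 591 and 623 to 1646 and 1585. Their list mean stood at 1.15 at 180 min, 2.06 at 200 min and 1.28 at 220 min, so the peak lay inside the interval. For the 122 protein-coding genes down at least 2-fold, the highest mean of the next cycle was at 180 min for 49 and at 200 min for 56. Of the 12 heat shock genes 3 were called higher and 1 lower, with a median of 0.21. Of the heat shock falls given by name above, *hsp16* was at 101 and 115 and then at 130 and 130 (limma adjusted p = 0.49). *hsp10* was not called (0.09) and neither was *hsp90* (0.04). Of the core stress genes 7 were called higher and 0 lower, among them *ctt1* from 1289 and 1315 to 1987 and 1875 and *atf1* from 675 and 720 to 1070 and 1187. *cta3*, *cmt2* and *SPAC637.03* rose again, by 0.77, 0.89 and 1.21, and *isp5* and *dgc1* were not called (-0.63 and -0.60).

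The same interval in the Nrm1 phosphorylation mutants shows which of these changes were smaller where Nrm1 was altered. In Nrm1-SA 2458 features changed (33.1%), 16.5% of those tested in each direction, and in Nrm1-SD 2720 (36.6%), 18.1% lower and 18.5% higher, and 96.6 and 95.2% of the features that had fallen in Nrm1 had a lower sign there. Tests of the difference between the exits, mutant minus Nrm1, called 98 features for Nrm1-SA (1.32%), 59 higher (0.794%) and 39 lower (0.525%), and 80 for Nrm1-SD (1.08%), 58 higher (0.781%) and 22 lower (0.296%). Both differences use the same Nrm1 libraries, and a gene with a fall exaggerated by chance in Nrm1 gives a difference toward the higher side in both. Left without 1 library, the counts ran from 54 to 85 for Nrm1-SA and from 49 to 82 for Nrm1-SD. Those called lower ran from 17 to 39 for Nrm1-SA and from 11 to 27 for Nrm1-SD, with 17 and 11 each reached without replicate 2 of Nrm1 100 min, replicate 2 of Nrm1 60 min or replicate 1 of the mutant at 60 min. Without replicate 1 of Nrm1 100 min they were 19 and 14, and without replicate 1 of Nrm1-SA 100 min 19. Those called higher ran from 37 to 49 and from 38 to 55. The totals were lowest without replicate 1 of Nrm1-SA 60 min (54), replicate 2 of Nrm1 100 min (56 and, for Nrm1-SD, 49), replicate 2 of Nrm1 60 min (57 and 51) and replicate 1 of Nrm1-SA 100 min (61).

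**Figure D5:**
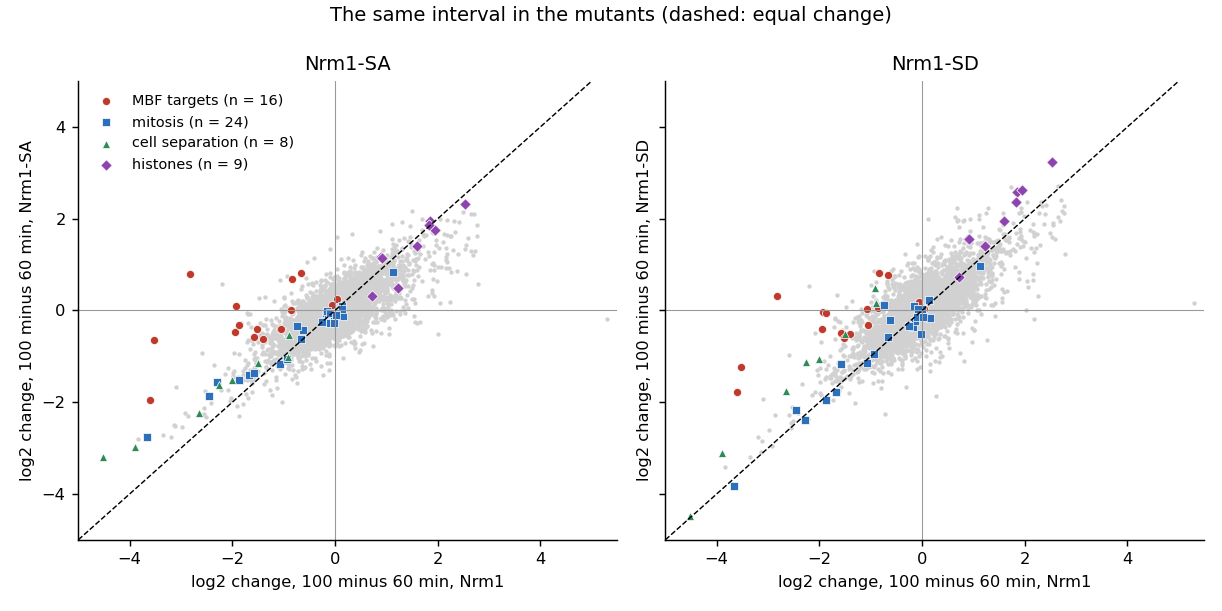
Log2 change from 60 to 100 min in Nrm1 (x axis) against the same change in each mutant (y axes, 1 panel per mutant), all features tested in grey and 4 gene lists in colour. MBF targets lie above the diagonal in both panels, except *suc22* in that of Nrm1-SD, while most mitotic genes lie close to it and the histones lie on it or above it in Nrm1-SD.

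The MBF targets fell less from 60 to 100 min in both mutants. Their change was called higher than in Nrm1 for 14 of 16 genes in Nrm1-SA (13 to 14 without 1 library) and for 14 of 16 in Nrm1-SD (14 in each fit without 1 library), the exceptions being *eso1* and *suc22*, and against -1.46 in Nrm1 the median change was -0.36 in the first mutant and -0.05 in the second. The list kept dropping after 100 min, so these medians do not cover the whole decline. In Nrm1-SD its log2 mean was 0.23 and 0.26 at 60 min and 0.37 and 0.24 at 80 min. From 100 to 140 min it went from 0.10 and -0.02 to -0.38 and -0.42. It went from -0.26 and -0.28 to -0.65 and -0.63 in Nrm1-SA and from -0.44 and -0.55 to -0.82 and -0.83 in Nrm1. These later declines were not tested between strains. *cdc18*, which lost 1.92 in Nrm1, was at 965 and 995 and then at 1019 and 1071 in Nrm1-SA. In Nrm1-SD it was at 1397 and 1363 and then at 1365 and 1314. *cdt2* rose in Nrm1-SA, from 243 and 320 to 470 and 504, and stood at 540 and 594 and then at 760 and 646 in Nrm1-SD. *cdt1* was low from the start, at 299 and 341 in Nrm1-SA at 60 min and 665 and 658 in Nrm1-SD, and then at 210 and 198 and at 273 and 291. Both genes were thus below their Nrm1 levels at 60 min, and at 100 min above them, *cdt1* by less than *cdt2*. These levels were not tested between strains. *cdc22* was at 11500 and 11803 in Nrm1-SA at 60 min and at 8505 and 8423 at 100 min, so that at 100 min it was above its level in Nrm1. *yox1* rose in both mutants, from 283 and 303 to 481 and 462 and from 345 and 411 to 672 and 657. *cdc10*, flat in Nrm1, also rose, from 382 and 395 to 651 and 635 and from 395 and 404 to 674 and 652.

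Stage markers moved less between strains than the MBF targets did. The medians of the 60 to 100 min change, first for Nrm1, then for Nrm1-SA and last for Nrm1-SD, were 1.60, 1.40 and 1.94 for histones, -2.14, -1.57 and -1.09 for cell separation and -0.22, -0.27 and -0.28 for mitosis. *slp1* fell from 4435 and 4018 to 694 and 563 in Nrm1-SA and from 4396 and 4386 to 269 and 356 in Nrm1-SD. In cell separation 1 gene was called different in Nrm1-SA (0 to 1 without 1 library) and 4 in Nrm1-SD (3 to 4) (*adg3*, *agn1*, *cfh4* and *mid2*), all toward a smaller fall. In mitosis 4 were called higher in Nrm1-SA, none of them in every fit without 1 library, and in Nrm1-SD 1 higher and 1 lower, the lower 1 in none of those fits. Of the histones *hhf2* was called lower in Nrm1-SA and *hht1*, *hht3*, *hta1* and *htb1* higher in Nrm1-SD, the latter 4 in no case in every fit without 1 library. The part of these stage differences in the MBF values was not tested.

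Outside the MBF list, 3 cohesin genes differed in both mutants, *psm3* and *pds5* among them, and so did the MBF target *rad21* (with *rad21*, 3 to 4 genes without 1 library in Nrm1-SA and 2 to 4 in Nrm1-SD), and *psm3* was called with differences of 1.27 in Nrm1-SA and 1.19 in Nrm1-SD. Of the 52 genes that fell in Nrm1 and differed in Nrm1-SA, all 52 differed toward a smaller fall, and for Nrm1-SD it was 44 of 47. Of the 38 risen genes that differed in Nrm1-SA, 37 rose less there. These counts share the Nrm1 libraries with the calls that define fallen and risen, so their direction is in part set by the choice.

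The upstream elements were counted in the 1000 bases before the start codon of 4926 protein-coding genes, on both strands, with overlaps allowed and ACGCGT also counted as ACGCG. Of the 122 genes down at least 2-fold, 48.4% held ACGCG against 28.2% of all genes and 24.5% of the 159 up at least 2-fold, and 18.9% held ACGCGT against 7.25 and 8.18%. The forkhead letters GTAAACA were found in 63.9% of the fallen genes, 36.6% of all and 25.2% of the risen, and CCAGCC in 21.3, 10.4 and 6.92%. Within 500 bases the shares for CCAGCC were 10.7, 4.22 and 4.4% in the same order. AACCCT was held by 20.5% of the fallen, 23.9% of the risen and 27.3% of all genes. By list, ACGCG was found before 15 of 16 MBF targets (all but *cig2*), CCAGCC before 7 of 8 cell separation genes, AACCCT before 9 of 9 histone genes and GTAAACA before 13 of 24 genes of mitosis. The element and the fall did not go together gene by gene: *eso1* and *suc22* hold ACGCG and were not called. A match says only that the letters are present in the window.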

How the data were processed

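RNA-seq libraries of polyA RNA were made by the authors with a directional kit, aligned with STAR and counted with HTSeq. Submitters' notes name FastQC, Trimmomatic, DESeq2 and the build ASM294v2. The authors deposited counts divided by DESeq2 size factors, a signal that is never negative. Whole reads were recovered by dividing by what 1 read is worth: 100% of the values came out whole (tolerance 0.001) in each library. Of 12683 features 12602 were matched by systematic ID to RefSeq ASM294v3, used for names and upstream sequence, with no conversion of coordinates. Depth was 2685381 to 10469416 reads per library.

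limma 3.58.1 (R 4.3.3) was run with trend = TRUE on log2(normalized count + 1). The model had a coefficient for each of 39 conditions and took the 7431 features whose mean reached 10, and p-values were adjusted by Benjamini-Hochberg over all of them. The Nrm1-SA pair of 140 min agreed within sampling noise (chi-square per degree of freedom 0.392, against 1.88 or more in the other 38 pairs) and entered once, as their mean, which left 77 libraries. Because the unit is not raw counts, edgeR 4.0.16 and DESeq2 1.42.0 on the recovered reads were alternatives, beside other pseudocounts, filters and thresholds, a replicate block and fits without 1 library. With 1 library left in a condition, that library is assumed to vary like the others. All tests are two-sided.

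Genes named are members of the lists, the 10 largest falls and rises among protein-coding genes and the 3 among noncoding RNAs, with both libraries on 1 side and a mean of at least 50 normalized counts. The members, lists and comparisons were chosen with earlier results of these data known. Scripts were checked on simulated counts. Copies were sought with BLAST 2.17.0, and sums and plots were made with numpy 2.4.6, pandas 2.3.3 and matplotlib 3.10.9 in Python 3.11.15. The authors' clustering and other experiments were not used here. Some genes that the rule selects are not reported here.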

Additional observations from a re-analysis of the deposited data

Results flagged for a closer look

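These differences were flagged by a test of the change itself between strains: the 60 to 100 min change in a mutant minus that in Nrm1, on the log2 scale, from limma over 7431 features. Both mutants are set against the same Nrm1 libraries, and a call in 1 mutant only is not shown to differ between the mutants. Each difference below was called at an adjusted p under 0.1, 63 in all. They were sought only among the 114 genes followed singly, which came from the gene lists and the rule for named genes. Over all features 98 differences were called for Nrm1-SA and 80 for Nrm1-SD, so those below are not a full account.

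Among MBF targets the differences in Nrm1-SA and Nrm1-SD were 3.63 and 3.14 for *cdt2*, 2.89 and 2.31 for *cdt1*, 2.02 and 1.88 for *cdc18*, 1.65 and 1.83 for *mik1*, 1.55 and 1.81 for *tos4* and 1.49 and 1.54 for *cdc22*. They were 1.52 and 1.66 for *yox1*, 1.49 and 1.44 for *ctp1*, 1.12 and 0.93 for *rad21*, 1.00 and 1.08 for *mrc1*, 0.87 and 0.92 for *cig2*, 0.78 and 0.89 for *dut1* and 0.65 and 0.75 for *ssb1*. For *nrm1* itself they were 0.67 and 1.10, and the first was not called in 7 of the 8 fits that left out 1 library (adjusted p up to 0.277).

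Other genes were called in both mutants. The differences were 1.63 and 1.54 for the histone activator gene *ams2*, 1.27 and 1.19 for *psm3*, 0.67 and 0.64 for *pds5*, 0.50 and 0.45 for the recombination gene *rad54*, 0.61 and 0.76 for *pol1*, 0.61 and 0.69 for *cdc20*, 0.75 and 0.76 for *cdc10*, 1.65 and 1.62 for *ste6*, and -0.68 and -0.76 for *psu1*. Without 1 library these were called throughout except *pol1* in Nrm1-SA (without replicate 2 of Nrm1 100 min, adjusted p = 0.115), *pds5* in Nrm1-SD (without replicate 1 of Nrm1-SD 100 min, 0.123), *rad54* in Nrm1-SD (2 of 8 fits, up to 0.145) and *psu1* (4 of 8 in Nrm1-SA and 2 of 8 in Nrm1-SD, up to 0.46 and 0.276).

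In Nrm1-SA alone, calls were made for *SPAPB24D3.07c* (-1.34) and *hhf2* (-0.72), which held in every fit without 1 library. The calls of *slp1* (0.91), *plo1* (0.74), *fkh2* (0.58), *gas1* (0.48), *isp5* (-1.12), *cta3* (-1.15) and *hsp16* (1.09) were each lost in 2 to 8 of the 8 such fits. *hsp16* was not called by edgeR or DESeq2 either. In Nrm1-SD alone, calls were made for *agn1* (1.14), *adg3* (1.05), *mid2* (0.98) and *cfh4* (0.95), of which *cfh4* was lost without replicate 2 of Nrm1 100 min (adjusted p = 0.141). The histone genes *hht1* (0.74), *hht3* (0.68), *hta1* (0.66) and *htb1* (0.65) were lost in 4 to 7 of the 8 fits (adjusted p up to 0.508).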

How the results depend on the processing

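All 114 genes followed singly kept the direction and the call of their 60 to 100 min change with edgeR, with a pseudocount of 5 and with the replicate block, and with DESeq2 all but *res1*. The numbers were not taken as pairs: differences between replicates correlated at -0.033 between 60 and 100 min, and 30 of 78 pairs of Nrm1 times exceeded 0.1. With the replicate number as a block 3013 features were called.

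In the fits of these genes without 1 library, 443 values kept the call, 11 lost it and 2 changed sign without a call: *cdc10* (-0.0774 to 0.0182, positive without replicate 1 of 60 min) and *rad54* (-0.111 to 0.0245, positive without replicate 2 of 100 min). The list medians that changed sign were those of septins (-0.0197 to 0.105, negative without replicate 1 of 100 min) and of the septation initiation network (-0.159 to 0.0293, positive without replicate 2 of 60 min). Without 1 library, the features called ran from 869 to 1082 from 60 to 80 min, from 601 to 794 from 80 to 100 min, from 811 to 1229 from 180 to 220 min, and from 54 to 85 (Nrm1-SA) and 49 to 82 (Nrm1-SD) for the differences from Nrm1. Requiring a 2-fold change left 510 of the 2914 features from 60 to 100 min. In the differences from Nrm1, those called lower in Nrm1-SA numbered 39, 71 with edgeR, 59 with the block and 23 at a threshold of 0.05, and in Nrm1-SD 22 and 42 with the block. Counting error limits features near the minimum mean, and 2 libraries per time limit the rest.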

Other observations

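The largest rise of all was that of *SPAC186.03*, singled out after its values were seen because its level kept it outside the rule for named genes: it had 0 normalized counts in both 60 min libraries and 41 and 35 at 100 min.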
